A study of Mus musculus with 7 samples.

Results

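Among 64579 FRA2 binding events mapped by chromatin immunoprecipitation with sequencing (ChIP-seq) in a pair of mouse striatal cell lines, 2779 (4.30%) held 100 or more FRA2 reads in each line and nearly the same number in both. They were chosen from the raw deposited reads, as events whose Q111 to Q7 ratio of FRA2 reads lay between 0.8 and its reciprocal, and are called the equal FRA2 sites here. Of the 5347 events with 100 or more reads in each line, the strong events, they made up 52.0%. The other strong events were 1323 with a higher ratio (more FRA2 in Q111) and 1245 with a lower one (more FRA2 in Q7).

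STHdhQ111 (Q111) carries HdhQ111/Q111, the mouse huntingtin gene with an expanded glutamine tract on both alleles, and STHdhQ7 (Q7) carries HdhQ7/Q7, with a short tract. Both lines come from embryonic day 14 striatum of 129SvEv/CD1 mice, had been passaged fewer than 15 times, and were grown at 33 °C and then held at 39 °C for 2 days to halt division. FRA2 and JUND were precipitated in each line and SOX2 in Q7, and every library pools replicates 1 and 2, so each group holds 1 value and a difference between Q111 and Q7 is one between pooled libraries. The IgG samples of both lines had no table of their own used here.

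AP-1 is a dimer of a FOS family protein and a JUN family protein that binds a short palindromic element, mostly in enhancers, and is known for its response to growth factors, stress and neuronal activity. FRA2, the product of Fosl2, is a FOS family member that cannot pair with itself on DNA and needs a JUN partner. JUND is such a partner, and it can also bind as a homodimer or with other FOS proteins. SOX2 is a factor of neural stem and progenitor cells that bends DNA and binds enhancers together with many other factors.

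Reads in listed events came to 3498922 for FRA2 in Q111 and 3340554 in Q7, to 1609483 for JUND in Q111 and 1660158 in Q7, and to 1193914 for SOX2 in Q7. These sums are the depth that the tables give. Positions are single bases on the mouse build mm9, as deposited. The equal sites held 15.7% of the FRA2 reads in Q111 and 16.4% in Q7. One equal site had 40 or more control reads in a line, at chromosome 15 position 74917377, with 114.9 control reads in Q111 and 46.3 in Q7. Beside them stood 160.9 FRA2 reads in Q111 and 181.9 in Q7.

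At the equal sites FRA2 reads had a median of 167.9 in Q111 (quartiles 130 and 233.35, range 100 to 1008) and 169 in Q7 (quartiles 130 and 230, range 100 to 936). The median ratio was 1.01, and the 95% interval of the ratio included 1 at 92.0% of sites and stayed within 0.5 to 2 at all 2779. These values chose the sites and describe them; no site was called different in FRA2, against 44.6% of all FRA2 events, and the rule fixes that count. All 2779 carried the deposited mark of presence in both lines. Control reads averaged 7.66 in Q111 and 5.01 in Q7 at the equal sites, and 5.71 in Q111 and 4.30 in Q7 over all FRA2 events.

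The limits of the rule fall within a dense run of events. The lowest read number inside the rule was 100, as at chromosome 1 position 98935298 with 110 FRA2 reads in Q111 and 100 in Q7. Just outside, chromosome 6 position 137468816 held 115.4 in Q111 and 99.9 in Q7. At the lower ratio limit, 124 reads in Q111 against 155 in Q7 at chromosome 8 position 97300428 gave a ratio of 0.8, and 119.9 against 149.9 at chromosome 8 position 125091441 fell just outside. At the upper limit, 155 reads in Q111 against 124 in Q7 at chromosome 2 position 144267234 lay on the limit, and 277.1 against 221.6 at chromosome 15 position 100241651 fell just outside.

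**Figure D1:**
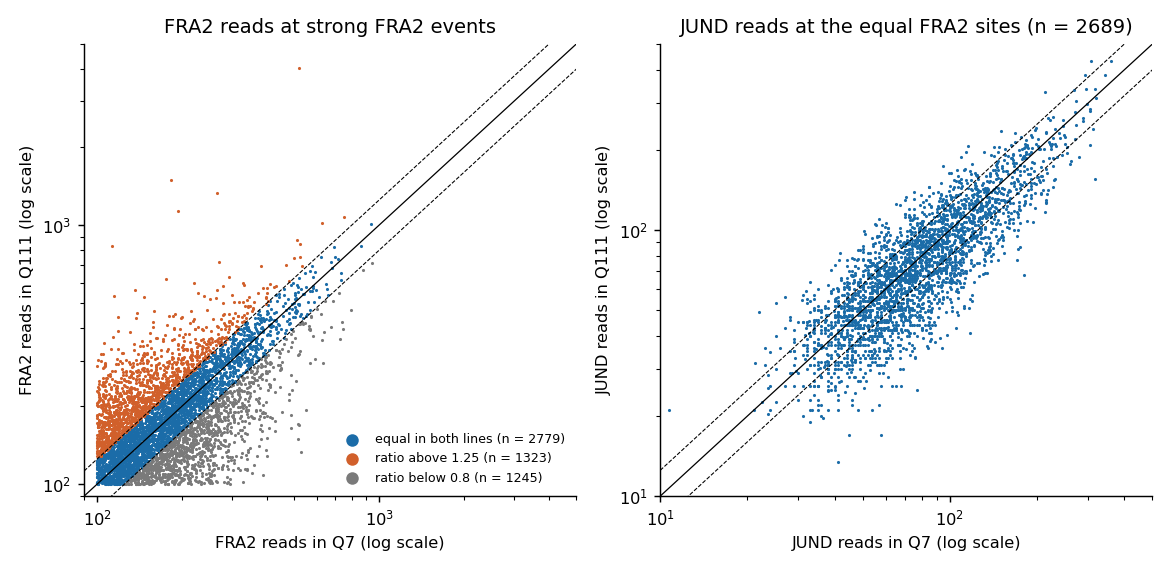
Reads per event in Q111 (vertical, log scale) against Q7 (horizontal, log scale), for FRA2 at all strong events (left) and for JUND at the 2689 equal FRA2 sites paired with a JUND event (right). The solid line marks a ratio of 1 and the dashed lines the limits of the rule, 0.8 and its reciprocal. FRA2 at the equal sites lies between the dashed lines by the rule, and JUND at the same sites spreads past them on both sides.

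The equal sites with the most FRA2 reads also held many JUND reads. Chromosome 8 position 70681285 led, with 1008 FRA2 reads in Q111 against 936 in Q7. Its JUND event, 4 bp away, had 297 reads in Q111 against 297 in Q7, and a SOX2 event 12 bp away had 136 reads. At chromosome 13 position 45719420, 831 FRA2 reads in Q111 stood against 865.9 in Q7. Here 2 JUND events within 100 bp held 357 reads together in Q111 and 383 in Q7, while the nearest SOX2 event was 60955 bp away.

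Of the 10 equal sites with the most FRA2 reads, this was the one without SOX2 within 100 bp, and 5 lay on chromosome 15 or 19. At chromosome 6 position 52775708 there were 820.4 FRA2 reads in Q111 and 692.1 in Q7, with 339 JUND reads in Q111 and 317 in Q7. The site at chromosome 15 position 59480154 differed more in JUND than the other 8 with a paired event. It had 751.7 FRA2 reads in Q111 against 623.8 in Q7, and 381.3 JUND reads in Q111 against 292.3 in Q7, a ratio of 1.30 (95% interval 1.12 to 1.52) below the fold limit used for calls.

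A JUND event lay within 100 bp of nearly every equal site. This was so at 2772 of 2779 sites, 99.7% (Wilson interval 99.5 to 99.9%), and at 99.3% of strong events with more FRA2 in Q111 and 99.5% of those with more in Q7. Among the 59232 FRA2 events that were not strong it was 51.3%. Strong events of all 3 classes thus had JUND at nearly every site. Within 1000 bp all 2779 equal sites had a JUND event.

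JUND positions sat close to those of FRA2. At 2689 equal sites (96.8%) the FRA2 event and the JUND event were each other's nearest within 100 bp, and these are the paired sites used below. The distance had a median of 9 bp (quartiles 4 and 18), against 14 bp for all FRA2 events with a paired JUND event. It was 10 bp or less at 55.7% of the paired sites and 50 bp or less at 97.9%, and at 88 sites the caller placed both proteins on the same base. Distances at the other strong classes are not given here, so this spacing is not read as particular to the equal sites.

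The 7 equal sites without JUND within 100 bp all had it somewhat farther off, between 101 and 755 bp, and all had another FRA2 event within 512 bp. With 176.5 FRA2 reads in Q111 and 195.1 in Q7, the site at chromosome 19 position 9057344 held the most FRA2 of these. Its nearest JUND event was 354 bp away and held 21 reads in Q111 and 10.7 in Q7. At chromosome 3 position 50999319, with 154.7 FRA2 reads in Q111 and 130.2 in Q7, the nearest JUND event was 129 bp away and held 201 reads in Q111 and 178 in Q7. For 4 of the 7 the nearest JUND event was at 101 to 129 bp, just past the limit.

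SOX2, measured in Q7, lay within 100 bp of 1719 equal sites, 61.9% (60.0 to 63.6%). Both JUND and SOX2 were within 100 bp of 1716 sites (61.7%), JUND without SOX2 of 1056 (38%), SOX2 without JUND of 3, and neither of 4. SOX2 was near 53.8% of the strong events with more FRA2 in Q111 and 76.5% of those with more in Q7, so the equal sites stood between the other strong classes. For the FRA2 events that were not strong the share was 20.1%. No test across events was made, since events are not replicates.

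The share with SOX2 followed the FRA2 reads. In 4 classes of about equal size, from low to high FRA2 reads over both lines, it was 46.6%, 56.1%, 65.4% and 79.3%. Among sites with 100 to under 150 FRA2 reads in Q7, SOX2 was near 50.2% of the equal sites, 45.9% of the strong events with more FRA2 in Q111 and 58.9% of those with more in Q7. With 150 to under 250 reads in Q7 the shares were 63.7%, 62.7% and 73.9% for the same classes. With 250 reads and more they were 80.9%, 77.3% and 83.5%. In each of these ranges the equal sites again stood between the other strong classes. The ranges match the classes in Q7 reads alone, a value the rule used.

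**Figure D2:**
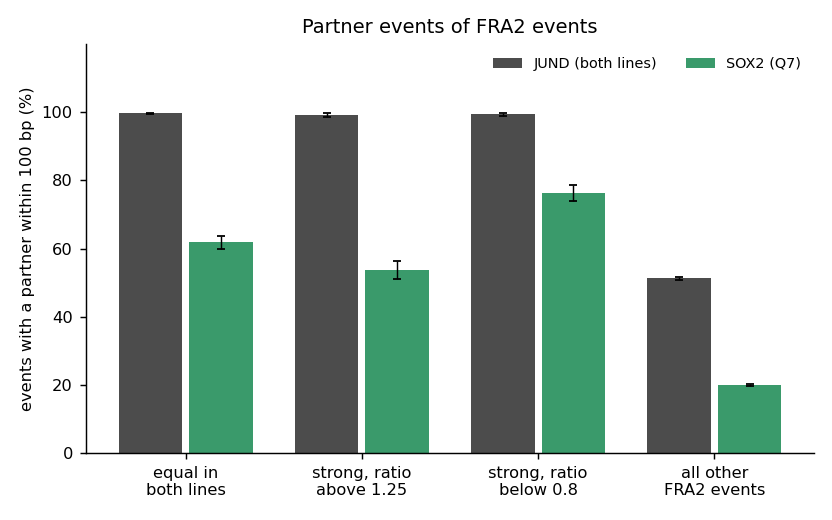
Share of FRA2 events (vertical axis, %) with a JUND event (dark) and with a SOX2 event (green) within 100 bp, in the equal sites, the other strong events by FRA2 ratio, and all other FRA2 events; bars start at 0 and error bars are 95% Wilson intervals. JUND was near 99.7% of the equal sites and at least 99.3% of the other strong classes, while SOX2 was near 61.9% of the equal sites, between 53.8% and 76.5% in the other strong classes.

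SOX2 sat farther from FRA2 than JUND did. The distance had a median of 33 bp (quartiles 15 and 57) over the 1719 sites, and 32.2% of these sites had SOX2 within 20 bp. SOX2 events at the equal sites held a median of 43 reads (range 20.9 to 484.8), against 33 over the SOX2 table. At strong events with more FRA2 in Q111 the median was 36 reads, and at those with more in Q7 it was 55.

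**Figure D3:**
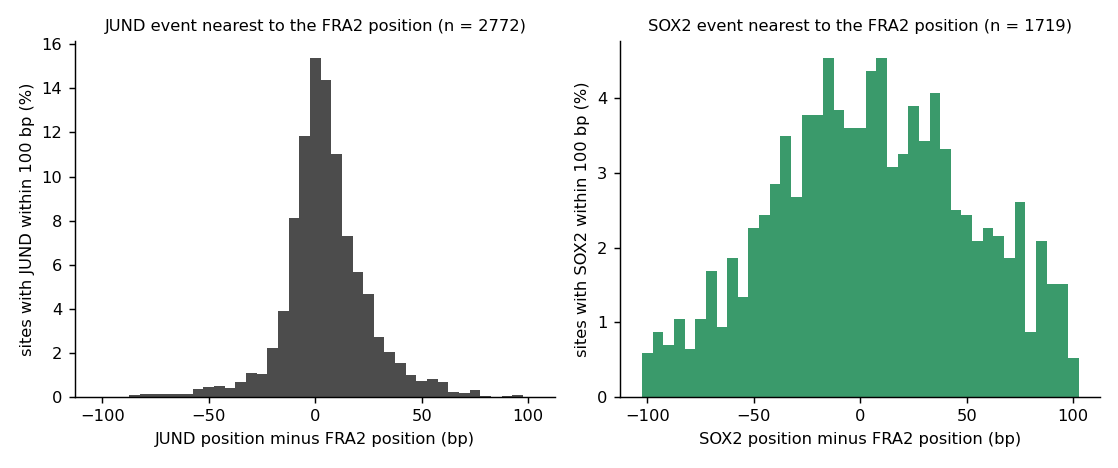
Position of the nearest JUND event (left, n = 2772) and SOX2 event (right, n = 1719) relative to the FRA2 position of each equal site, in bp along the forward strand; bars give the share of sites (%) in 5 bp steps. JUND is packed around 0 with a median distance of 9 bp at paired sites, and SOX2 is spread over the window with a median distance of 33 bp.

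The most SOX2 reads within 100 bp of an equal site stood at chromosome 15 position 58312043, with 484.8 SOX2 reads. This site had 399.7 FRA2 reads in Q111 against 343.9 in Q7, and 276.5 JUND reads in Q111 and 270.7 in Q7. At chromosome 10 position 121341344, 482.3 SOX2 reads lay 10 bp from a site with 542.6 FRA2 reads in Q111 and 536.7 in Q7. Its paired JUND event had 190.8 reads in Q111 against 155.1 in Q7, and with a second JUND event within 100 bp the sum was 407.4 in Q111 and 416.5 in Q7. In both, all 3 proteins were abundant and neither FRA2 nor JUND was called different.

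A site with strong SOX2 could still differ in JUND. At chromosome 3 position 78957092 there were 440.7 SOX2 reads, and FRA2 had 139.1 reads in Q111 against 165.8 in Q7. JUND had 156 reads in Q111 against 316 in Q7, a ratio of 0.494 (0.405 to 0.600, exact binomial test with Benjamini-Hochberg adjustment, adjusted p = 1.53e-13). That call was lost when reads were scaled by their totals or control reads were subtracted, where the log2 fold came to −0.97 and −0.96, short of the limit. With an assumed dispersion of 0.05, a spread between libraries beyond counting error, it was lost as well (exact beta-binomial test, adjusted p = 0.0911).

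The next comparison asked whether JUND is equal where FRA2 is equal. JUND reads at the 2689 paired sites had a median of 70 in Q111 (quartiles 50 and 100.4, range 13.4 to 432.8) and 75 in Q7 (quartiles 54.3 and 105, range 10.7 to 361). Over the JUND table the medians were 27 in Q111 and 28 in Q7. Summed over the paired sites, the JUND ratio of Q111 to Q7 was 0.944, and that of FRA2 was 1.01.

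By the same window on raw reads, JUND was equal at 1486 of the paired sites, 55.3% (53.4 to 57.1%). It was above the window at 402 sites (14.9%) and below it at 801 sites (29.8%). The background share inside the window was 21.6% over all JUND events and 21.1% over JUND events paired with any FRA2 event. These backgrounds were not matched for JUND reads. Inside the window were 29.3% of the strong events with more FRA2 in Q111 and 16.1% of those with more in Q7. On raw reads, more equal sites thus had JUND inside the window than outside it, and those outside were more often below it. This majority was not kept with control reads subtracted, where 48.4% were inside, or with scaling by control reads, where 10.2% were inside and the median JUND log2 fold was −0.81.

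The JUND log2 fold, Q111 over Q7 on raw reads, had a median of −0.08 (−0.10 to −0.06, order-statistic interval), quartiles of −0.38 and 0.18, and a range of −1.74 to 1.14. Its standard deviation over sites was 0.42, beside 0.25 for counting error alone at these read numbers. Over the JUND table, whose events held fewer reads, it was 1.44. What separate libraries add to counting error cannot be had from 1 pooled library per line. The interval of the median runs over sites that share these libraries, and it does not cover the choice of scaling. At the paired sites the median was −0.035 with scaling by read totals, −0.15 by the median and −0.81 by control reads. On raw reads the medians were 0.49 at strong events with more FRA2 in Q111 and −0.78 at those with more in Q7.

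**Figure D4:**
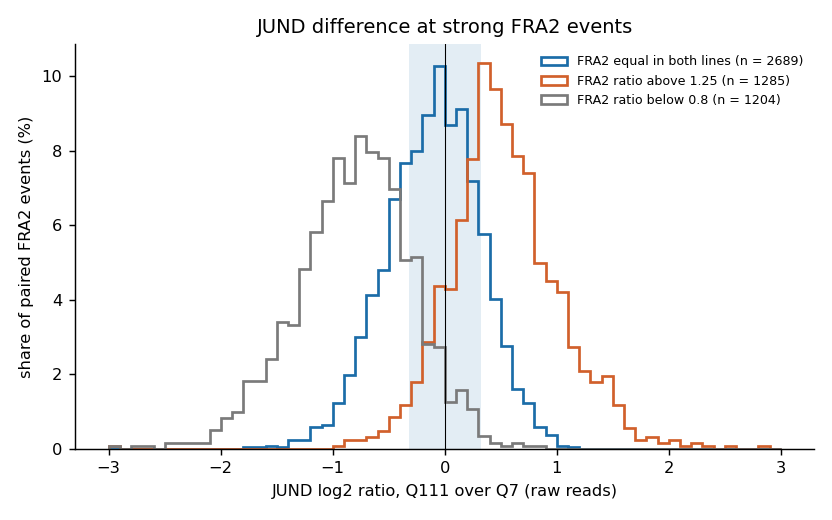
Distribution of the JUND log2 ratio, Q111 over Q7 on raw reads (horizontal axis), as share of paired FRA2 events (vertical axis, %) for the equal sites and the other strong events by FRA2 ratio. The shaded band is the window from 0.8 to its reciprocal. The equal sites centre on a median of −0.08, with 55.3% inside the band, and the other classes centre on 0.49 and −0.78.

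Another reading uses the interval of each site, with wider limits. The 95% interval of the JUND ratio lay wholly within 0.5 to 2 at 1944 paired sites (72.3%), against 17.5% of all JUND events. It lay wholly past 0.5 or 2 at none. All JUND events held fewer reads than the paired sites, which widens their intervals, so the background share is not matched for reads. The interval reached past 0.5 or 2 and still included 1 at 277 sites (10.3%), where the reads allow both equal binding and a difference of 2-fold. It reached past a limit and excluded 1 at 468 sites (17.4%). At 208 sites (7.74%) it excluded 1 while staying within 2-fold.

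Over sites of any read number the interval excluded 1 at 676 sites (25.1%), against 52.4% of all JUND events. JUND was higher in Q111 at 204 of these and lower in Q111 at 472. Calls, which needed a 2-fold change and an adjusted p under 0.05, were made at 72 paired sites (2.68%, 2.13 to 3.36%), against 40.6% of all JUND events. JUND was called higher in Q111 at 1 site and lower in Q111 at 71 sites, against 17.4% and 23.3% of all JUND events. An unadjusted p below 0.05 was reached at 740 sites (27.5%).

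How the calls split depends on the scaling. The 1 higher and 71 lower sites came with scaling to JUND events present in both lines, whose median log2 ratio was 0.07. Scaling by read totals gave 5 higher and 41 lower, no scaling 3 and 50, and scaling by control reads 0 and 912. Subtracting control reads gave 18 higher and 128 lower, and the assumed dispersion of 0.05 gave 0 and 6. Mean control reads beside JUND were 8.30 in Q111 and 5.0 in Q7 at the paired sites, and 7.19 in Q111 and 4.32 in Q7 over the JUND table. Their part in the result was not tested. Among the strong events with more FRA2 in Q111, JUND was called higher in Q111 at 164 of 1285 and lower at 1, and among those with more FRA2 in Q7, JUND was called higher in Q111 at 0 and lower at 470 of 1204.

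The read number behind a site sets how well its JUND ratio is known. At the 227 paired sites with under 80 JUND reads over both lines, 44.5% were inside the window and 37.0% had an interval within 0.5 to 2. At the 1287 sites with 80 to under 160 reads the shares were 52.4% and 65.5%. At the 1175 sites with 160 reads and more they were 60.4% and 86.6%, and 1.19% were called different. With 160 JUND reads and more, 14.4% of the strong events with more FRA2 in Q111, 42.1% of those with more in Q7 and 55.2% of the other FRA2 events were called. The low share of calls at the equal sites was thus also seen where reads were plentiful.

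**Figure D5:**
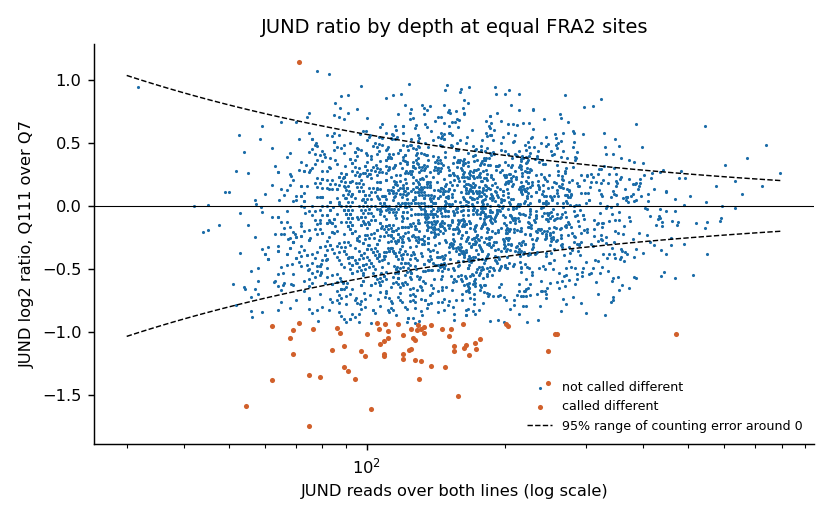
JUND log2 ratio, Q111 over Q7 (vertical axis), against JUND reads over both lines (horizontal axis, log scale) at the 2689 paired equal sites. Dashed curves mark the 95% range that counting error alone gives around 0. The 72 called sites are shown in orange; 71 lie at the bottom of the plot and 1 at the top, and at high read numbers the points draw closer to 0.

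The JUND folds are given here by FRA2 ratio as a description, since that ratio chose the sites. With a FRA2 ratio of 0.8 to 0.9 the median JUND log2 fold was −0.33 and 7.0% of sites were called. From 0.9 to 1 it was −0.17, from 1 to the reciprocal of 0.9 it was 0, and above that it was 0.15.

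Sites with more FRA2 reads also had more JUND reads. Across the paired sites log2 JUND reads and log2 FRA2 reads had a Pearson r of 0.75 in Q111 and 0.76 in Q7, each within a line, over sites that share 1 library per protein and that the rule cut at 100 FRA2 reads. JUND reads per FRA2 read had a median of 0.391 in Q111 and 0.421 in Q7. At 8 paired sites JUND reads exceeded FRA2 reads in both lines. Different antibodies and library depths stand behind both proteins, so the quotient is not a ratio of bound molecules.

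The 71 sites with JUND called lower in Q111 had a median of 38.3 JUND reads in Q111 and 84 in Q7, with a median log2 fold of −1.08. Their FRA2 ratio had a median of 0.881, and 36 of them (50.7%) had SOX2 within 100 bp. They were spread over 18 chromosomes. At 10 of the 72 called sites the FRA2 ratio lay on the other side of 1 from the JUND fold, and at 2 it was exactly 1. The interval farthest from 1 belonged to the site at chromosome 10 position 45608869, where JUND had 67.7 reads in Q111 against 180 in Q7, a ratio of 0.378 (0.281 to 0.502, exact binomial test, adjusted p = 2.10e-12). FRA2 there had 108.4 reads in Q111 against 124.8 in Q7.

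The other 4 named sites of this kind are given next, with FRA2 held close by the rule. At chromosome 15 position 44543260 JUND had 41 reads in Q111 against 117 in Q7, while FRA2 had 186 in Q111 and 207 in Q7. At chromosome 1 position 153532361 JUND had 25 reads in Q111 against 77 in Q7 at the very base of the FRA2 event, which had 104 in Q111 and 108 in Q7. At chromosome 15 position 58983258 JUND had 36 reads in Q111 against 94 in Q7, and FRA2 had 166 in Q111 and 205 in Q7, near the lower limit of the rule. The largest fold was at chromosome 4 position 137901008, with 17 JUND reads in Q111 and 58 in Q7, a ratio of 0.299 (0.160 to 0.510), beside 112 FRA2 reads in Q111 and 131 in Q7. Control reads beside JUND at this site were 14 in Q111 and 4.6 in Q7. Subtracting control reads moved its scaled log2 fold from −1.81 to −3.90, so the size of this fold depends on the control. All 4 sites kept their call when scaled by totals, by control reads or with an assumed dispersion of 0.05.

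The single site with JUND called higher in Q111 was at chromosome 6 position 140426884. JUND had 49 reads in Q111 against 22 in Q7, a ratio of 2.20 (1.32 to 3.87, exact binomial test, adjusted p = 0.0104), and FRA2 had 131 reads in Q111 against 113 in Q7. The nearest SOX2 event was 3945 bp away. This call did not survive scaling by control reads or an assumed dispersion of 0.05.

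Among the 5 sites with the most JUND reads, all on chromosome 15 or 6, none was called. The most JUND reads were at chromosome 15 position 59312334, with 432.8 in Q111 and 361 in Q7, beside 665.9 FRA2 reads in Q111 and 569.9 in Q7. At chromosome 15 position 36814612 JUND had 430 reads in Q111 against 308 in Q7, a ratio of 1.40 (1.2 to 1.62), and FRA2 had 659.9 in Q111 and 590.9 in Q7. Of the JUND events in the top 1% by reads, 59.9% lay within 100 bp of an equal site, while 5.91% of all JUND events did. Of the SOX2 events in the top 1%, 10.5% did, and of all SOX2 events 6.4%. The equal sites are strong FRA2 events, and the other strong classes also had JUND at nearly every site. The shares of top events at the other strong classes are not given here, so nothing particular to the equal sites is read from these values.

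The share of sites with JUND inside the window was nearly the same with and without SOX2. JUND was inside the window at 55.2% of the 1653 paired sites with SOX2 and 55.4% of the 1036 without it. The sites with SOX2 held more JUND, with medians of 80 reads in Q111 and 87 in Q7, against 56 in Q111 and 59 in Q7 without SOX2. The window shares are thus not matched for JUND reads. By the interval of each site the sets were less alike. The interval of the JUND ratio lay within 0.5 to 2 at 76.1% with SOX2 and 66.2% without. It excluded 1 at 27.9% with SOX2 and 20.8% without. The median JUND log2 fold was −0.11 (−0.13 to −0.08) with SOX2 and −0.04 (−0.07 to −0.01) without, and 36 sites were called in each set, 2.18% and 3.47%. From the lowest to the highest of 3 classes by SOX2 reads the median JUND log2 fold was −0.06, −0.10 and −0.16, while the median FRA2 ratio was 1.02, 1 and 0.980. In all, 912 sites (33.9% of the paired sites) had FRA2 and JUND inside the window and SOX2 within 100 bp.

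An exact hypergeometric test (two-sided) of each FRA2 event with its paired JUND event, at an adjusted p under 0.05, picked out 14 paired sites (0.521%) where the FRA2 and JUND folds differed, and 0.216% of all FRA2 and JUND pairs. The test takes in the FRA2 reads by which the sites were chosen, so the count is a description and nothing is read from the comparison with all pairs. With control reads subtracted it was 88 sites. At 13 of the 14 JUND lay further towards Q7 than FRA2 did, and at 1 the other way. The test used unscaled reads, and no scaled version was run. In log2, read totals of Q111 over Q7 were 0.067 for FRA2 and −0.045 for JUND. This offset goes in the direction of the 13 sites, and its part in the split was not tested.

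The deposited marks give the presence of JUND in each line and do not measure whether its reads were equal. JUND was marked present in both lines at 98.1% of the paired sites, in Q7 alone at 51 and in Q111 alone at 1. Over JUND events paired with any FRA2 event, 43.5% were marked present in both lines. That share is not matched for reads, and those of the other strong classes are not given here. A site marked present in 1 line was not a site without JUND reads in the other, since the lowest JUND value at any paired site was 13.4 reads in Q111 and 10.7 in Q7. Such low values do not show that JUND was bound, since control reads also lay at these sites. At chromosome 4 position 137901008, 17 JUND reads in Q111 stood beside 14 control reads.

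Some events around the equal sites were called different, at shares below those of all events. The share over all FRA2 events takes in the equal sites, none of which was called. The next FRA2 event was a median of 1883 bp away. Of 1033 FRA2 events outside the rule within 1000 bp of an equal site, 24.7% were called different between the lines, against 44.6% of all FRA2 events. Of 4977 such events within 10000 bp, 35.7% were called. Of the 690 JUND events more than 250 and up to 1000 bp from an equal site, 27.8% were called, and of the 3753 beyond 250 and up to 10000 bp, 36.7%, against 40.6% of all JUND events. The shares given here are not matched for reads, and those around the other strong events are not given. Nothing about the regions is read from them.

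Equal sites were found on all autosomes and on chromosome X. Chromosome 15 held the most, 234, or 5.53% of its FRA2 events, and chromosome X the fewest, 15, or 1.21% of its events. These shares also follow the number of strong events per chromosome. Of the strong events, equal sites made up 51.3% on chromosome 15 and 37.5% on chromosome X, and the highest share was 62.4% on chromosome 7. The median JUND log2 fold per chromosome ran from −0.31 on chromosome X and −0.29 on chromosome 17 to 0.04 on chromosome 16. On chromosome 17 JUND was called at 8.08% of the 99 paired sites and 42.4% were inside the window, and the median over all JUND events of that chromosome was −0.60. On chromosome 16 none of 95 paired sites was called.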

How the data were processed

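The deposited tables list binding events as single base positions on mm9, found with the caller GPS, whose version is not given in the sources used here; reads were aligned with Bowtie 0.12.7, per the submitters' processing notes. The IP values are expected counts (estimated counts) that the authors deposited unscaled, 78.0% to 89.6% of them whole; they were rounded to whole reads for tests. The control values are a signal, control reads times a factor per library, per the file headers and values; the headers do not name the control library. The deposited q-value, as −log10, and the present mark were used for alternatives and description. Another 22 value columns went unused.

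The members and lists were chosen with earlier results of these data known. Q111 was compared with Q7 at each event by a two-sided exact binomial test on the Q111 share of reads, against a share set by the median log2 ratio of events present in both lines (0.07 for JUND, 0.05 for FRA2), with Benjamini-Hochberg adjustment over all events with 20 or more reads, which all 46583 JUND events had. A call needed an adjusted p below 0.05 and a scaled fold of at least 2, with a pseudocount of 0.5. Folds in the text are on unscaled reads with that pseudocount, with 95% Clopper-Pearson limits. FRA2 and JUND folds at 35176 pairs were compared with an exact hypergeometric test (two-sided) on unscaled reads. The limits of each fold cover counting error only, and reads without molecular identifiers may repeat a molecule. Wilson intervals of shares and order-statistic intervals of medians run over sites. Those sites share the same pooled libraries, so these intervals hold no spread between libraries. Each test compares a pair of pooled libraries and not the genotypes. The paired sites had a median of 146.1 JUND reads over both lines. Counting error, as a root mean square over these sites, has a standard deviation of 0.25 in log2. The procedures were tested on simulated data. Analyses used Python 3.11.15, numpy 2.4.6, scipy 1.17.1 and pandas 2.3.3.

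Named events are the 10 equal sites with the most FRA2 reads, the 5 called sites per direction with JUND intervals farthest from 1, the 5 with the most JUND reads, the 5 with the most SOX2 reads, the 5 with the most FRA2 reads and no JUND within 100 bp, and events at the limits of the rule. The 14 sites whose FRA2 and JUND folds differ, the other 2 sites without JUND and the site with high control reads were chosen after their values were seen. No site lacked both JUND and SOX2 within 1000 bp. Events are given by position, and genes, sequences and motifs were not analysed here, because the gene table at hand is of another build than mm9.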

Additional observations from a re-analysis of the deposited data

Results flagged for a closer look

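At 14 of the 2689 paired equal sites the FRA2 fold and the JUND fold between Q111 and Q7 differed from each other (exact hypergeometric test, adjusted p below 0.05), 0.521% of the paired sites against 0.216% of all pairs. An unadjusted p below 0.05 was reached at 357 sites. On unscaled reads, JUND was shifted further towards Q7 than FRA2 at 13 of the 14 and further towards Q111 at 1. The difference in read totals between the libraries was not corrected for. Among these was the site at chromosome 10 position 39872493, where JUND had 55 reads in Q111 against 117 in Q7, and FRA2 had 220 reads in Q111 against 189 in Q7. At chromosome 12 position 51070696, JUND had 54 reads in Q111 against 119 in Q7, beside 226.7 FRA2 reads in Q111 and 214.2 in Q7. The site in the other direction, at chromosome 13 position 6192988, had 124.2 JUND reads in Q111 against 67 in Q7, and 210.4 FRA2 reads in Q111 and 234.1 in Q7. The test takes in the FRA2 reads by which the sites were chosen, so the count and its comparison with all pairs are a description, and the parts of FRA2 and JUND in each difference were not told apart. With control reads subtracted, 88 pairs differed.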

How the results depend on the processing

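No paired analysis was possible because each library pools replicates 1 and 2 into 1 sample; for the same reason no replicate could be left out. Of 87 alternatives of the results on all equal sites, 44 moved the value by less than its interval or kept a count within 1.5 times, and 43 moved it. None of 78 alternatives of the 13 named called sites turned the direction of JUND, and 13 ended a call. These sites were chosen by calls of at least 2-fold. No scaling used shifted a fold that far, so rescaling could not turn a direction. In what follows the order is the share with JUND inside the window, the share called and the median JUND log2 fold. Scaling by control reads gave 10.2%, 33.9% and −0.81, and moved the median JUND log2 ratio of all events by 0.73. Subtracting control reads gave 48.4%, 5.43% and −0.16. Scaling by read totals gave 1.71% called and a median of −0.035. Sites with 50 reads in each line gave 50.8% and 4.79%, and with 200 reads 63.7%, 1.16% and −0.054. A FRA2 window of 0.9 to its reciprocal gave 57.4% and 1.62%, and one of 0.67 to 1.5 gave 48.6% and 5.51%. A JUND window of 0.67 to 1.5 held 82.6%. The rule on scaled FRA2 reads gave a median of −0.043. A fold limit of 1.5 gave 16.0% called, no fold limit 21.1%, and an assumed dispersion of 0.05 gave 0.223%. Scaling JUND by the median, an alternative chosen after seeing the data, gave 53.3% and a median of −0.15. Leaving out sites with another FRA2 event within 250 bp and no scaling were also chosen after seeing the data.

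JUND partners were found at 95.8% within 50 bp, 99.9% within 250 bp, 100% within 1000 bp, 97.6% with a −log10 q-value of 5 or more, and 95.9% and 100% with 50 and 200 FRA2 reads in each line. SOX2 partners under the same settings came to 43.2%, 72.9%, 76.6%, 45.4%, 48.5% and 76.7%, and both partners to 41.7%, 72.8%, 76.6%, 45.2%, 47.8% and 76.7%. The pairs that differ came to 88 with control reads subtracted. The number of equal sites was 2774 with scaled FRA2 reads, 2500 with control reads subtracted and 1925 with scaling by control reads. What cannot be had from 1 pooled library per group is the spread between cultures, and at sites with under 80 JUND reads a 2-fold difference was often within the interval. The cause of each change was not tested.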

Other observations

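The offset between FRA2 and JUND positions was not symmetric along the forward strand. Over the 2772 equal sites with JUND within 100 bp, the nearest JUND position was at a higher coordinate at 59.5% and at a lower one at 37.3%, with a median offset of 4 bp (quartiles −5 and 14). For all FRA2 events with JUND within 100 bp the shares were 54.2% and 43.8% and the median 3 bp. For SOX2, the nearest position was higher at 54.2% of equal sites and lower at 45.2%, with a median of 5 bp.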
